A study of Mus musculus with 16 samples.

Results

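Cdkn1a, the 3 Gadd45 genes and 6 further genes that restrain cell division were followed in the mouse ventricle after endotoxin. The 10 genes (Cdkn1a, Cdkn1b, Cdkn1c, Cdkn2c, Gadd45a, Gadd45b, Gadd45g, Mdm2, Ccng1 and Btg2) were chosen by name, each was read at its brightest probe set (by mean of all 16 arrays) out of those annotated to that gene alone, and all 10 were found among 18193 genes tested. They are covered by 19 probe sets, and the other 9 served as a check. RNA came from the ventricular myocardium of male mice of CD1 background, aged 14 weeks, that either lacked the adenosine 2A receptor (A2AR KO) or were wild-type (WT) littermates of the same breeding series. The mice had received 1 intraperitoneal injection, either of LPS (lipopolysaccharide, a bacterial endotoxin, isolated from E. coli) at 20 mg/kg or of an equal volume of sterile saline, and 24 h separated treatment from collection. The 4 groups were KO LPS, KO saline, WT LPS and WT saline, with 4 arrays in each and 1 array per sample. The mice came from a sub-colony of an existing receptor knockout line, and no label names a tissue-restricted deletion. Nothing ties an array to a litter, a cage or a hybridisation batch, so p-values measure the spread between these arrays.

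Cells leave the cycle when inhibitors hold the cyclin-dependent kinases (CDKs) that drive entry into S phase. The Cip/Kip proteins, encoded by Cdkn1a (p21), Cdkn1b (p27) and Cdkn1c (p57), bind cyclin-CDK complexes broadly, whereas Cdkn2c (p18) belongs to the INK4 family that binds CDK4 and CDK6. Cdkn1a, Gadd45a, Mdm2, Ccng1 and Btg2 are textbook targets of the tumour suppressor p53, and Cdkn1a and the Gadd45 genes also respond to cytokines and other stress without it. Most adult cardiomyocytes have left the cycle, so in this tissue these genes are read as stress and differentiation genes as well as brakes on division.

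The values are log2 probe set summaries, so 1 unit is a doubling, and levels of different probe sets cannot be set against each other. The median over probe sets was 4.65, and the median of single arrays was 4.62 to 4.67. The first principal component held 66.3% of the variance and parted LPS from saline arrays. WT LPS array 4 and KO LPS array 2 lay farthest from the mean of their group mates, at a root mean square distance of 0.49 and 0.43, with the remaining 14 arrays between 0.17 and 0.33. Skeletal muscle markers (9 of 9 measured) averaged 7.58 and 8.95 in WT saline arrays 1 and 4, against 5.84 and 5.94 in the other WT saline arrays and 5.55 to 5.86 in the remaining 12. Cardiomyocyte markers, all 10 measured, averaged 13.40 to 13.65 in KO LPS against 13.86 to 13.89 in KO saline arrays, and 13.52 to 13.73 in WT LPS against 13.82 to 13.85 in WT saline arrays, with 5 of 10 called lower after LPS in each genotype. Over all genes 14.7% were called lower in KO and 11.6% in WT hearts.

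Sequence before the start of these genes is shown for the textbook p53 targets, Btg2 among them, and for Gadd45b and Gadd45g. RefSeq windows (GRCm38.p6) were found for 9 of the 10 genes, 11 windows in all, and the 250 bases before each start were searched on both strands. The p53 decamer, the motif of which an adjoining pair makes a full p53 response element, was present in 4 of the 11 windows, against 7.13% of 32851 windows over all genes. These 4 belonged to Cdkn1a, Gadd45a, Mdm2 and Ccng1. The window of Btg2, also a textbook p53 target, held no decamer. The stretches, given 5′ to 3′ on the strand of the gene with decamers in capitals, lie at chr17:29090899-29090948 (plus strand) for Cdkn1a, chr6:67037418-67037467 (minus) for Gadd45a, chr10:117710915-117710964 (minus) for Mdm2 and chr11:40755442-40755491 (minus) for Ccng1.
Cdkn1a: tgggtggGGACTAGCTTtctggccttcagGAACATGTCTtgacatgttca
Gadd45a: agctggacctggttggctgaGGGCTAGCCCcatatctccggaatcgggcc
Mdm2: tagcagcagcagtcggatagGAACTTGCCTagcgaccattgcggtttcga
Ccng1: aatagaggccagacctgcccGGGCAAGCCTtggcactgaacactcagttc
The Cdkn1a stretch holds 2 decamers and precedes the first of the 2 annotated Cdkn1a starts, which lie 2790 bases apart, and the window of the second start held none. A decamer was counted only where every base matched. On that rule no window of these genes held 2 adjoining decamers, an arrangement found in 0.00913% of all windows. In the Cdkn1a stretch, the bases tgacatgttc directly after the second decamer fit the motif at all but their first base, and are not in capitals. Pairs with a mismatch were not searched for.

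Gadd45b and Gadd45g share 3 motifs that Gadd45a does not hold together. CACGTG (the E-box core), CCAAT and TATAAA occurred in both, at chr10:80929901-80930060 (plus strand) for Gadd45b and chr13:51846525-51846664 (plus strand) for Gadd45g, and are in capitals.
Gadd45b: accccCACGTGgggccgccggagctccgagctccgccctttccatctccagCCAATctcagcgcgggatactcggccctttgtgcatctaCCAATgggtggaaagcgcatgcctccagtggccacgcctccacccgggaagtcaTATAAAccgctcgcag
Gadd45g: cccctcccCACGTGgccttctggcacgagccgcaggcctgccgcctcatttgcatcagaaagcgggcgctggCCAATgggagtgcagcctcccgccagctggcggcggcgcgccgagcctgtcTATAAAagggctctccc
The Gadd45a window held CCAAT and neither of the other two. Among all windows CACGTG was present in 6.02%, CCAAT in 33.8% and TATAAA in 12.4%, and among the 11 windows here in 2, 7 and 2. The Btg2 window held TGACGTCA, the cAMP response element core, which 1.55% of windows carry, at chr1:134079291-134079340 (minus strand).
Btg2: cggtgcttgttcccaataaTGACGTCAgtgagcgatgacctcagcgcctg
TTCNNNGAA, the STAT core, and the NF-kB consensus motif were in none of the 11 windows and in 7.02% and 3.9% of all windows, and TTGCNNAA, the C/EBP core, was in 1 (Gadd45a) and in 9.56% of all. A match is a run of letters and not a measured binding site.

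LPS moved the 10 genes in both directions. Relative to saline, 6 of 10 were called at an adjusted p under 0.05 in KO hearts, 3 higher and 3 lower, where 26.1% of all genes were called (11.4% higher, 14.7% lower). In WT hearts 6 of 10 were called, 4 higher and 2 lower, where 20.9% of all genes were called (9.28% higher, 11.6% lower). The groups did not overlap for 6 of 10 genes in KO and 7 of 10 in WT hearts, against 28.5% and 22.8% of all genes. The median log2 change of the 10 was 0.04 in KO and 0.58 in WT hearts, beside -0.02 and -0.0035 over all genes, and the median size of change regardless of sign was 0.91 and 1.18, beside 0.17 and 0.15. Without WT saline arrays 1 and 4, 5 of 10 were called in KO and 4 of 10 in WT hearts, where 2061 genes in place of 3798 were called over the whole table, and the 4 were Cdkn1a, Cdkn1c, Gadd45b and Gadd45g. All these calls come from limma. The 10 genes were chosen with earlier results of these data known, so their counts set beside all genes are a description and not a test. RNA of whole ventricle was measured, so fewer cells of a type and less RNA per cell cannot be told apart.

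**Figure D1:**
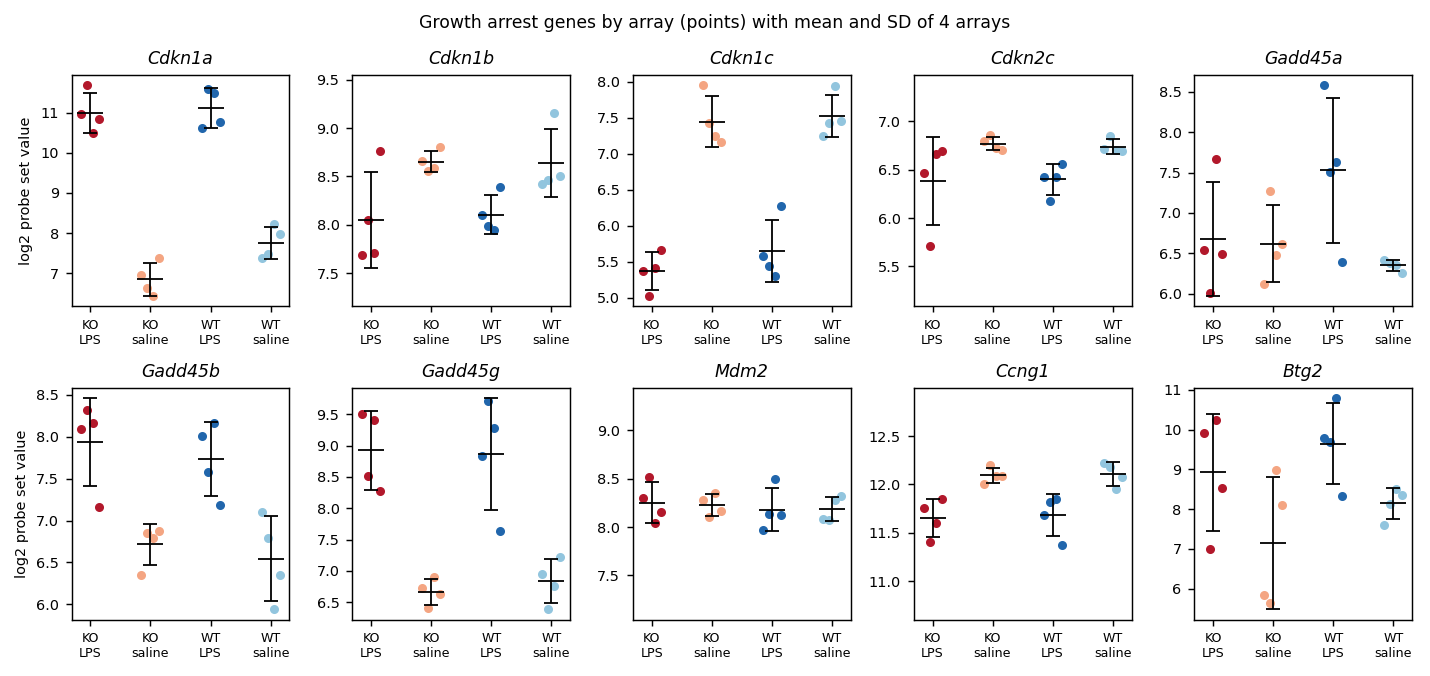
Log2 probe set value (vertical axes) of each of the 10 genes in every array (points) of the KO LPS, KO saline, WT LPS and WT saline groups, with the mean and SD of 4 arrays in black. Cdkn1a and Gadd45g are high and Cdkn1c is low in the LPS groups of both genotypes, and Mdm2 lies between 7.97 and 8.52 throughout.

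Among the Cip/Kip inhibitors, Cdkn1a rose after LPS and Cdkn1c fell. Cdkn1a, which encodes p21, stood at 10.97, 11.68, 10.49 and 10.83 in KO LPS hearts, against 6.96, 6.63, 6.45 and 7.38 in KO saline hearts. In WT hearts it stood at 10.61, 11.57, 11.49 and 10.77 after LPS, against 7.37, 7.48, 8.22 and 7.97 after saline. The lowest LPS array (10.49) lay above the highest saline array (8.22) whichever the genotype. The rise was 4.14 ± 0.28 on the log2 scale in KO hearts (SE, 17.7-fold, limma adjusted p = 2.25e-08) and 3.35 ± 0.28 in WT hearts (10.2-fold, adjusted p = 2.62e-07), ranks 49 and 105 among 18193 genes by p. The second Cdkn1a probe set rose by 2.49 ± 0.29 in KO and 2.37 ± 0.29 in WT hearts, both called.

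Cdkn1c, which encodes p57, an imprinted inhibitor that restrains growth in development, moved the other way. It stood at 5.38, 5.03, 5.41 and 5.67 in KO LPS hearts, against 7.96, 7.43, 7.25 and 7.16 in KO saline hearts. It stood at 5.58, 5.45, 5.30 and 6.27 in WT LPS hearts, against 7.25, 7.44, 7.94 and 7.46 in WT saline hearts. The groups did not overlap in either genotype, and WT LPS array 4 was the highest of the 8 LPS arrays. Cdkn1c fell by 2.08 ± 0.22 in KO hearts (4.22-fold, limma adjusted p = 3.16e-06) and by 1.87 ± 0.22 in WT hearts (3.66-fold, adjusted p = 1.10e-05). A single probe set reports this gene.

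Cdkn1b, which encodes p27, a brake kept high in resting cells, was lower after LPS by much less. It stood at 7.69, 8.05, 7.71 and 8.76 in KO LPS hearts, against 8.67, 8.56, 8.59 and 8.80 in KO saline hearts, with KO LPS array 4 inside the saline range. It stood at 8.11, 7.99, 7.94 and 8.39 in WT LPS hearts, against 8.42, 8.46, 9.16 and 8.51 in WT saline hearts, and these groups did not overlap. The change was -0.60 ± 0.21 in KO hearts (limma adjusted p = 0.0427) and -0.53 ± 0.21 in WT hearts (adjusted p = 0.0863). The KO call held in 6 of the 16 fits that left out 1 array, with changes of -0.84 to -0.48 and a highest adjusted p of 0.139. It was lost without any 1 KO saline array, without KO LPS array 1, 2 or 3, and without WT saline array 2 or 4 or WT LPS array 1. It was also lost with all probe sets tested (adjusted p = 0.0555), with the mean of its probe sets (-0.33, adjusted p = 0.0588), with arrays centred on their median (adjusted p = 0.0546), with only the groups compared (adjusted p = 0.0616) and without WT saline arrays 1 and 4 (adjusted p = 0.0572). In WT hearts the change was called without WT LPS array 4 (-0.63, adjusted p = 0.0446) and without KO LPS array 4 (-0.53, adjusted p = 0.0231). It was also called there with array weights (-0.55, limma adjusted p = 0.0337). The second Cdkn1b probe set, with a mean of 3.44 below the median over probe sets, had changes of -0.06 and 0.10.

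Cdkn2c, the INK4 inhibitor p18, was not called in either genotype. It stood at 6.47, 5.71, 6.66 and 6.70 in KO LPS hearts, against 6.80, 6.86, 6.73 and 6.71 in KO saline hearts. It stood at 6.43, 6.18, 6.43 and 6.56 in WT LPS hearts, against 6.71, 6.85, 6.70 and 6.69 in WT saline hearts. All LPS arrays lay below all saline arrays of their genotype, with KO LPS array 2 lowest. The change was -0.39 ± 0.17 in KO hearts (limma adjusted p = 0.105) and -0.34 ± 0.17 in WT hearts (adjusted p = 0.182). Without KO LPS array 2 the WT change was called (adjusted p = 0.0188) and the KO change was -0.16 and not called. Without KO LPS array 4 the KO change was -0.49 (adjusted p = 0.0443). With array weights the WT change was called (-0.39, limma adjusted p = 0.0190). A single probe set reports this gene.

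The GADD45 proteins are small stress-induced proteins that bind PCNA, p21 and the kinase MAP3K4, which feeds the p38 and JNK pathways. Gadd45g had the largest fitted rise of the 3. It stood at 9.51, 8.52, 9.41 and 8.27 in KO LPS hearts, against 6.72, 6.41, 6.90 and 6.63 in KO saline hearts. It stood at 8.83, 9.71, 9.28 and 7.65 in WT LPS hearts, against 6.95, 6.39, 6.76 and 7.23 in WT saline hearts. LPS and saline arrays did not overlap, and array 4 was the lowest LPS array in each genotype. Gadd45g rose by 2.26 ± 0.36 in KO hearts (4.79-fold, limma adjusted p = 0.000170) and by 2.03 ± 0.36 in WT hearts (4.10-fold, adjusted p = 0.000553). A single probe set reports this gene.

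Gadd45b, which is induced by NF-kB and TGF-beta signalling, rose in both genotypes by about the same amount. It stood at 8.10, 8.32, 8.16 and 7.17 in KO LPS hearts, against 6.35, 6.85, 6.79 and 6.88 in KO saline hearts. It stood at 8.00, 7.58, 8.16 and 7.19 in WT LPS hearts, against 7.10, 6.79, 5.94 and 6.35 in WT saline hearts. The groups did not overlap, though WT LPS array 4 (7.19) came close to WT saline array 1 (7.10). The rise was 1.22 ± 0.28 in KO hearts (limma adjusted p = 0.00342) and 1.19 ± 0.28 in WT hearts (adjusted p = 0.00496). A second probe set rose by 1.16 ± 0.26 and 1.44 ± 0.26, and the remaining one, whose mean of 4.65 lies at the median over probe sets, was not called (0.28 and 0.24).

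Gadd45a, the p53-responsive member, was called after LPS in WT hearts and not in KO hearts. It stood at 6.55, 6.01, 7.66 and 6.49 in KO LPS hearts, against 6.12, 7.27, 6.48 and 6.62 in KO saline hearts, and these values interleave. It stood at 8.58, 7.51, 7.63 and 6.39 in WT LPS hearts, against 6.42, 6.38, 6.35 and 6.26 in WT saline hearts, where 3 of 4 LPS arrays lay above all saline arrays and WT LPS array 4 fell among them. The change was 0.05 ± 0.38 in KO hearts (limma adjusted p = 0.940, 95% interval -0.75 to 0.86) and 1.17 ± 0.38 in WT hearts (adjusted p = 0.0363). The difference of these responses, KO minus WT, was -1.12 ± 0.54 (95% interval -2.26 to 0.02) and did not pass over all genes (adjusted p = 0.959), so the responses are not shown to differ. The WT call held in 9 of the 16 fits that left out 1 array and was lost without any 1 WT saline array and without WT LPS array 1, 2 or 3 (highest adjusted p = 0.128, with a rise of 0.82 without WT LPS array 1). It was also lost without WT saline arrays 1 and 4, which carry the skeletal muscle transcripts (1.16, adjusted p = 0.167). A single probe set reports this gene.

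Among WT LPS arrays, array 4 was the lowest for all 3 Gadd45 genes, Ccng1 and Btg2, and the highest for Cdkn1b, Cdkn1c and Cdkn2c. Its cell type markers differed as well. Macrophage and monocyte markers (9 of 10 measured) averaged 8.14 there, against 6.71 to 7.37 in the other WT LPS arrays, and endothelial markers (10 of 10) averaged 8.87 against 8.04 to 8.18. Among KO LPS arrays, array 2 was the lowest for Gadd45a, Cdkn1c, Cdkn2c, Ccng1 and Btg2, and the highest for Cdkn1a, Gadd45b and Mdm2. It had the lowest macrophage and monocyte (6.41), fibroblast (8.74) and cardiomyocyte (13.40) means of any array, and the highest neutrophil mean (6.14). Of these macrophage and monocyte markers 3 rose and 3 fell after LPS in KO hearts, and 3 rose and 2 fell in WT hearts. Neutrophil markers (9 of 10) averaged 5.71 to 6.14 in KO LPS against 4.06 to 4.14 in KO saline hearts, and 5.30 to 5.86 in WT LPS against 3.93 to 4.15 in WT saline hearts. Of these 9 markers 4 rose, 0 fell and 5 were not called in each genotype, with median log2 changes of 0.71 in KO and 0.34 in WT hearts. Smooth muscle and pericyte markers (8 of 8) averaged 8.21 to 8.52 in KO LPS against 8.95 to 9.38 in KO saline hearts, and 7.73 to 8.53 in WT LPS against 9.09 to 9.42 in WT saline hearts. Fibroblast markers (9 of 9) averaged 8.74 to 9.49 in KO LPS against 9.82 to 9.95 in KO saline hearts, and 8.76 to 9.93 in WT LPS against 9.93 to 10.06 in WT saline hearts. After LPS 6 of 8 smooth muscle and pericyte, 3 of 9 fibroblast and 4 of 5 atrial markers fell in each genotype. Of 10 endothelial markers 4 fell and 1 rose in KO hearts, and 2 fell and 1 rose in WT hearts. Of 4 measured adipocyte markers (of 6) 2 fell in KO and 3 in WT hearts. Over all genes 14.7% were called lower in KO and 11.6% in WT hearts, and 11.4% and 9.28% were called higher. The part of these cell type markers in the changes of the 10 genes was not tested. Without both WT LPS array 4 and KO LPS array 2, a setting chosen after seeing the data, 6 of 10 genes were called in KO and 9 of 10 in WT hearts, with 5373 and 5723 genes called over the whole table. Mdm2 was the gene not called in WT hearts in that setting. In KO hearts Cdkn1b was no longer called (-0.60, adjusted p = 0.05003) and Btg2 was (2.42, adjusted p = 0.00961).

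**Figure D2:**
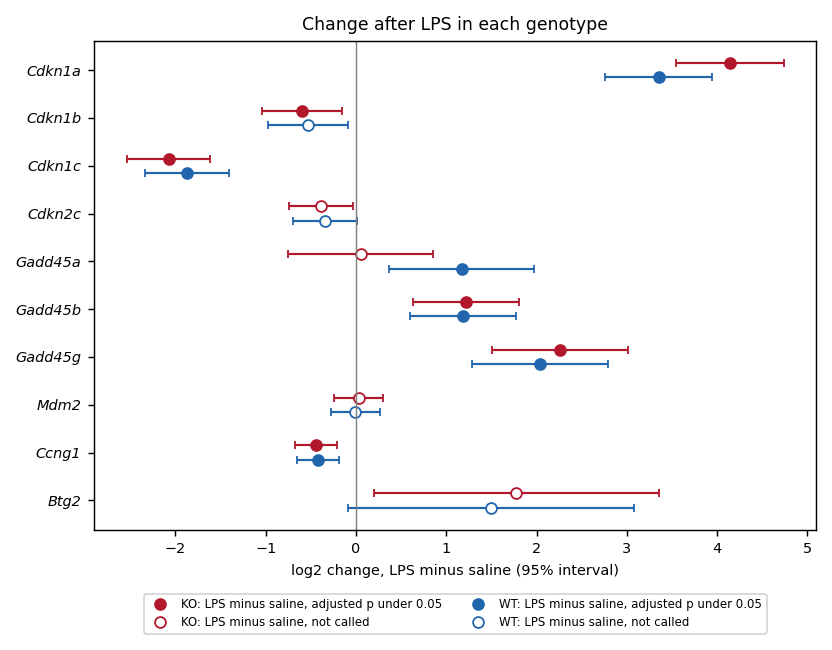
Log2 change after LPS (horizontal axis, LPS minus saline) of the 10 genes in KO hearts (red) and WT hearts (blue), with the 95% interval from limma. Filled points have an adjusted p under 0.05. Cdkn1a lies farthest to the right and Cdkn1c farthest to the left in both genotypes, and the intervals of the genotypes overlap for every gene.

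Mdm2 was not called in either genotype, Ccng1 fell, and Btg2 was called at 1 of its 2 probe sets. Mdm2, the ubiquitin ligase that p53 induces and that in turn degrades p53, stood at 8.30, 8.52, 8.04 and 8.16 in KO LPS hearts, against 8.29, 8.10, 8.35 and 8.16 in KO saline hearts. It stood at 7.97, 8.14, 8.49 and 8.12 in WT LPS hearts, against 8.09, 8.08, 8.28 and 8.32 in WT saline hearts. The ranges overlap in both genotypes. The change was 0.03 ± 0.13 in KO hearts (95% interval -0.24 to 0.30, limma adjusted p = 0.907) and -0.0087 ± 0.13 in WT hearts (95% interval -0.28 to 0.26, adjusted p = 0.974), so a rise by more than 0.30 lies outside both intervals. The other Mdm2 probe sets were not called either, with changes of 0.0015 and 0.21 in KO and -0.03 and -0.05 in WT hearts.

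Ccng1, which encodes cyclin G1, a p53 target that recruits a phosphatase to MDM2, fell slightly. It stood at 11.76, 11.41, 11.60 and 11.85 in KO LPS hearts, against 12.01, 12.20, 12.09 and 12.08 in KO saline hearts. It stood at 11.69, 11.82, 11.85 and 11.37 in WT LPS hearts, against 12.23, 12.18, 11.95 and 12.07 in WT saline hearts. The groups did not overlap in either genotype. Ccng1 fell by 0.44 ± 0.11 in KO hearts (limma adjusted p = 0.00648) and by 0.43 ± 0.11 in WT hearts (adjusted p = 0.00990). Neither of its other 2 probe sets was called, with changes of -0.68 and -0.53 in KO and -0.37 and -0.26 in WT hearts and larger errors of 0.33 to 0.36. With the mean of its probe sets the change was -0.55 in KO hearts (adjusted p = 0.151) and -0.35 in WT hearts (adjusted p = 0.422), neither called, and the WT call was also lost without WT saline arrays 1 and 4 (-0.39, adjusted p = 0.106).

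Btg2, an antiproliferative protein that recruits the deadenylase complex to messenger RNA and is induced by p53 and by growth signals, was higher after LPS on average without passing the test. It stood at 9.91, 7.002, 10.25 and 8.54 in KO LPS hearts, against 5.84, 5.64, 8.99 and 8.11 in KO saline hearts. It stood at 9.79, 9.68, 10.79 and 8.32 in WT LPS hearts, against 7.61, 8.12, 8.51 and 8.35 in WT saline hearts. KO saline arrays 1 and 2 and KO LPS array 2 were low, and both pairs of groups overlapped. The change was 1.78 ± 0.75 in KO hearts (limma adjusted p = 0.0950) and 1.498 ± 0.75 in WT hearts (adjusted p = 0.188). The KO change was called without KO LPS array 2 (2.42, adjusted p = 0.0213) and without KO saline array 3 (2.39, adjusted p = 0.0271). With all arrays kept, it was also called with the mean of its probe sets (1.51, limma adjusted p = 0.0430) and with array weights (2.15, adjusted p = 0.0208). The WT change was called with only the groups compared (1.498, limma adjusted p = 0.0361).

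The second Btg2 probe set spread less in 3 of the 4 groups, and in WT LPS hearts its SD was 1.02, against 1.01 on the first. Its values were 9.09, 8.46, 8.57 and 7.77 in KO LPS hearts, against 7.12, 6.90, 7.60 and 7.26 in KO saline hearts. In WT hearts they were 8.90, 9.07, 9.08 and 6.98 after LPS, against 6.95, 7.06, 7.66 and 7.55 after saline. KO saline arrays 1 and 2, far below the other KO saline arrays on the first probe set, stood at 7.12 and 6.90 here, beside 7.60 and 7.26 in the other 2. That probe set rose by 1.25 ± 0.38 in KO hearts (adjusted p = 0.0284 over all probe sets, limma) and by 1.21 ± 0.38 in WT hearts (adjusted p = 0.0412), so the call of Btg2 depends on which probe set reads it.

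**Figure D3:**
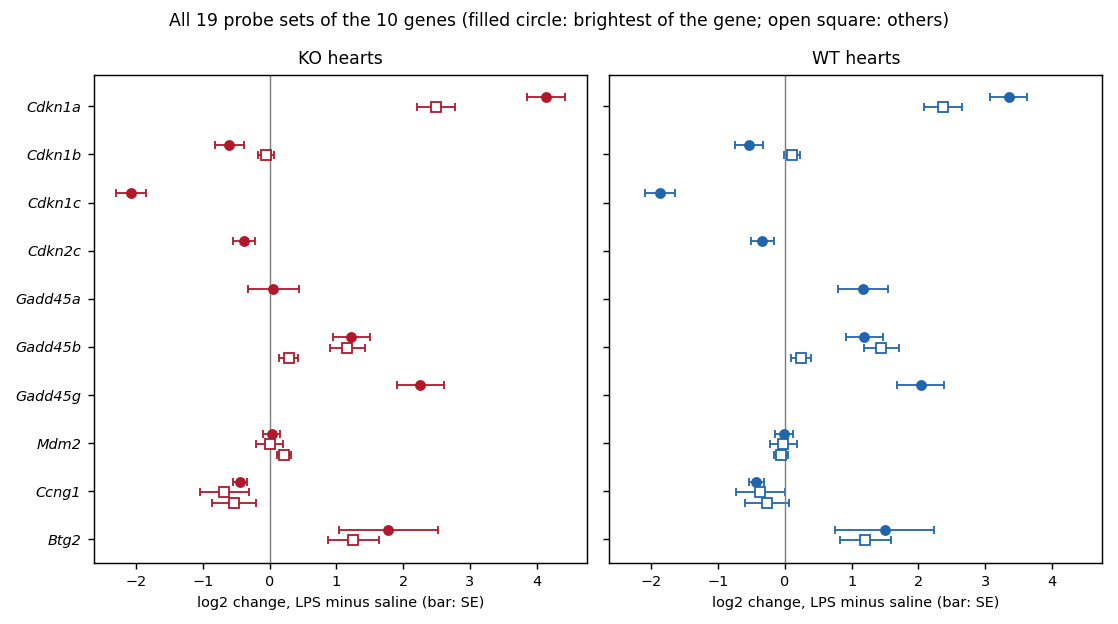
Log2 change after LPS (horizontal axis, LPS minus saline, bars are the SE from limma) at each of the 19 probe sets in KO hearts (left) and WT hearts (right). Filled circles are the brightest probe set of a gene and open squares the others. The Cdkn1a probe sets differ in size (4.14 against 2.49 in KO hearts) and not in direction, and the dim Cdkn1b probe set lies near 0.

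Likeness of profiles over the 16 arrays was measured as a distance. It is the root mean square difference of log2 values after each gene was centred on its own mean. Of all genes outside the members, those nearest to Cdkn1a were Oasl2, an interferon-induced antiviral gene, at 0.39, Tap1, a peptide transporter of antigen presentation, at 0.45, and Gbp7, an interferon-induced GTPase, at 0.45. The nearest of the 9 other members was Gadd45g, at a distance of 1.02; the outside genes were picked from the whole table for a small distance, so these distances cannot be weighed against each other. Nearest to Gadd45g were Ier3, an early response gene (0.27), Myd88, the adaptor of Toll-like receptors (0.29), and Sostdc1, a secreted BMP antagonist (0.31). Nearest to Gadd45b were Ttpal (0.29), Itpkc (0.30) and Spcs3 (0.30), and nearest to Gadd45a were Tmem100 (0.40), Gnptab (0.41) and Ubxn8 (0.43). The closest members were Cdkn2c and Ccng1 (0.22), and Gadd45a and Gadd45b lay 0.70 apart. Profiles were not scaled, so genes with small changes lie close to each other. Mdm2, which was not called, and Ccng1, which fell, lay 0.32 apart. A small distance between such genes therefore does not show a shared response.

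Genes of the same pathways outside the 10 were read from lists of known roles. Of 25 measured p53 regulators and targets (of 28 listed), 6 rose and 2 fell in KO hearts and 4 rose and 1 fell in WT hearts, with median log2 changes of 0.06 and 0.03 beside -0.02 and -0.0035 over all genes. These counts, 8 and 5 of 25, stand beside 26.1% and 20.9% of all genes called and are near those shares. Fas, the death receptor, rose by 1.98 ± 0.20 in KO and 1.87 ± 0.20 in WT hearts, and Ddit4, an inhibitor of mTOR complex signalling, by 1.67 ± 0.25 and 1.38 ± 0.25. Pml, which is also an interferon-induced gene, rose by 1.66 ± 0.24 and 1.14 ± 0.24, and Trp53inp1, a cofactor of p53, by 1.03 ± 0.36 and 1.17 ± 0.36. Sesn1, a stress-induced inhibitor of mTOR complex signalling, fell by 1.2015 ± 0.33 in KO hearts and had a change of -0.19 ± 0.33 in WT hearts (limma adjusted p = 0.771). Ddb2, a DNA damage recognition protein, fell by 0.62 ± 0.21 in KO hearts (-0.51 ± 0.21 in WT hearts, not called), and Perp, a membrane protein of desmosomes, fell by 0.55 ± 0.12 in WT hearts (-0.24 ± 0.12 in KO hearts, not called). Of the 25, 17 in KO and 20 in WT hearts were not called.

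Among 4 other CDK inhibitors, Cdkn2d (the INK4 protein p19) rose by 1.09 ± 0.19 in KO and 0.97 ± 0.19 in WT hearts, and the other 3 were not called (list medians 0.05 and -0.01). Those 3, Cdkn2a, Cdkn2b and Cdkn3, lay below the median over probe sets in every group, so the lack of a call says little about them. Of 18 G1 cyclins, their kinases and RB and E2F proteins, 3 rose and 3 fell in KO hearts, and 0 rose and 3 fell in WT hearts (medians -0.08 and 0.04), beside 26.1% and 20.9% of all genes called. Ccnd2, which encodes cyclin D2, fell by 1.10 ± 0.21 in KO and 0.94 ± 0.21 in WT hearts, Ccne2, which encodes cyclin E2, by 0.71 ± 0.12 and 0.55 ± 0.12, and the repressor E2f6 by 0.86 ± 0.19 and 0.64 ± 0.19. Ccne2 was dim, with group means of 2.88 to 3.63, below the median over probe sets of 4.65. The genes that rose in KO hearts were E2f3 (0.50 ± 0.15), Rb1, the retinoblastoma protein gene (0.36 ± 0.10), and E2f4 (0.25 ± 0.09), with changes of 0.23 ± 0.15, 0.09 ± 0.10 and 0.26 ± 0.09 in WT hearts, none called. Of 20 measured S phase and mitosis genes (of 21), 0 were called in KO hearts and 2 rose in WT hearts (medians -0.02 and 0.02). Those were subunits of the replicative helicase, Mcm7 (0.24 ± 0.12 in KO, not called, and 0.56 ± 0.12 in WT hearts) and Mcm6 (0.23 ± 0.13 in KO, not called, and 0.39 ± 0.13 in WT hearts). Pcna, Mcm6, Mcm7 and the rest of the S phase and mitosis list lay above the median over probe sets of 4.65, except the following. Mki67, Top2a, Ccna2, Ccnb2, Cdk1, Rrm2, Aurka, Aurkb, Bub1 and Birc5 lay below it in every group. Changes of such dim probe sets are compressed, so the lack of a call says little about them. The shares of 26.1% and 20.9% of all genes called are the background for every list in this paragraph.

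Of 4 measured BTG and TOB genes other than Btg2 (of 5), 1 rose and 1 fell in each genotype (medians 0.34 in KO and 0.26 in WT hearts). Btg1 rose by 0.64 ± 0.16 in KO and 0.55 ± 0.16 in WT hearts, and Tob1, an antiproliferative relative, fell by 0.59 ± 0.13 and 0.85 ± 0.13. Of 8 measured kinases through which GADD45 proteins act (of 9), 0 rose and 2 fell in KO hearts, and 1 rose and 4 fell in WT hearts (medians -0.10 and -0.23). For this list and the BTG and TOB list, the background is 26.1% of all genes called in KO and 20.9% in WT hearts. The KO count of 2 of 8 kinases is near that share. Map3k4, which GADD45 proteins bind, fell by 0.93 ± 0.22 in KO and 0.82 ± 0.22 in WT hearts, and Map2k6, a kinase of p38, by 1.28 ± 0.16 and 0.84 ± 0.16. Mapk14, which encodes p38 alpha, fell by 0.50 ± 0.12 in WT hearts and had a change of -0.25 ± 0.12 in KO hearts (limma adjusted p = 0.125). The gene that rose in WT hearts was Mapk11, which encodes p38 beta (0.48 ± 0.14).

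Of 16 measured transcription factors with textbook roles upstream of the 10 genes (of 18), 8 rose and 0 fell in KO hearts, and 7 rose and 1 fell in WT hearts, with medians of 0.68 and 0.41. Over all genes 26.1% were called in KO and 20.9% in WT hearts. Cebpd, a C/EBP factor of the acute phase, rose by 2.58 ± 0.25 in KO and 3.06 ± 0.25 in WT hearts. Myc, which can repress Cdkn1a, rose by 2.52 ± 0.45 and 2.65 ± 0.45, and Irf1, an interferon regulatory factor, by 2.30 ± 0.33 and 1.77 ± 0.33. The gene that fell in WT hearts was Cebpa, another C/EBP factor (-0.64 ± 0.15).

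**Figure D4:**
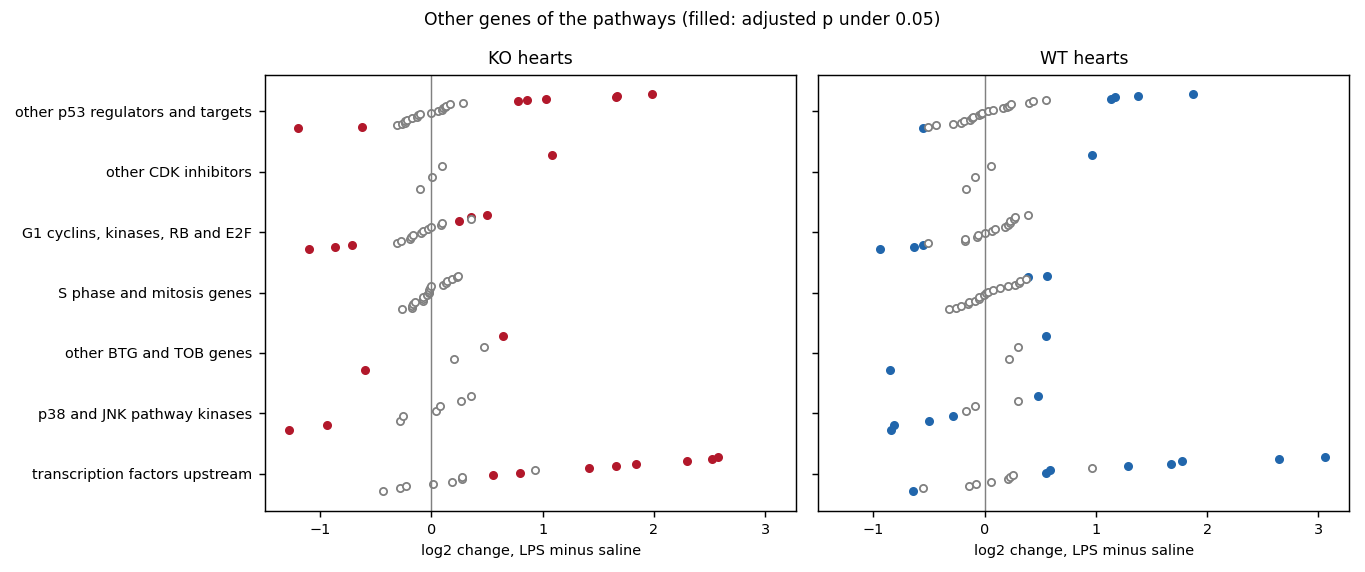
Log2 change after LPS (horizontal axis, LPS minus saline) of each measured gene of 7 lists in KO hearts (left) and WT hearts (right). Filled points have an adjusted p under 0.05 over all genes. The S phase and mitosis genes lie near 0, with 0 called in KO and 2 in WT hearts, while upstream transcription factors reach 2.58 in KO and 3.06 in WT hearts. Part of the S phase and mitosis genes, such as Mki67 and Cdk1, lie below the median over probe sets, where changes are compressed. Over all genes 26.1% were called in KO and 20.9% in WT hearts.

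The genotype comparisons asked whether loss of the A2AR shifts these genes with or without LPS. None of the 10 was called after saline, after LPS, in the mean of both, or in the difference of the LPS responses. Over all genes limma called 1 gene after saline (0.0055%), 1 after LPS (0.0055%), 1 in the mean KO effect (0.0055%) and 0 in the difference of responses (0%). At an unadjusted p under 0.05, 1 of the 10 passed after saline, 1 after LPS, 1 in the mean KO effect and 0 in the difference, beside 3.48%, 7.56%, 5.15% and 4.47% of all genes. No gene of the pathway lists was called in a genotype comparison either. The LPS comparisons and the genotype comparisons share their arrays. The saline groups also differed in tissue markers. Adipocyte markers (4 of 6 measured) averaged 4.67 to 5.25 in KO saline and 5.54 to 5.97 in WT saline hearts. The 1 gene called after saline was among these markers. Skeletal muscle markers were high in WT saline arrays 1 and 4. The part of such markers in the genotype differences was not tested.

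Cdkn1a, Gadd45a and Btg2 are given singly here because their values stood out. Cdkn1a was the gene that passed the unadjusted test after saline, and also in the mean KO effect (-0.51 ± 0.20, limma adjusted p = 0.902). KO saline hearts averaged 6.85 ± 0.41 and WT saline hearts 7.76 ± 0.40 (SD, n = 4 each), a difference of -0.91 ± 0.28 that did not pass over all genes (limma adjusted p = 1, 95% interval -1.502 to -0.31). The groups touch, since KO saline array 4 (7.38) lay just above WT saline array 1 (7.37). After LPS the difference was -0.12 ± 0.28 (KO 10.995 ± 0.50, WT 11.11 ± 0.49), and the LPS responses differed, KO minus WT, by 0.79 ± 0.40 without passing (95% interval -0.05 to 1.63, adjusted p = 0.959). At the second Cdkn1a probe set the saline difference was -0.24 ± 0.29 and the difference of responses 0.12 ± 0.41.

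Gadd45a was the gene that passed it after LPS, at 6.68 ± 0.70 in KO LPS hearts and 7.53 ± 0.90 in WT LPS hearts, a difference of -0.85 ± 0.38 (limma adjusted p = 0.659), while after saline KO hearts were at 6.62 ± 0.48 and WT hearts at 6.35 ± 0.07. Btg2 differed by -1.001 ± 0.75 after saline and by -0.72 ± 0.75 after LPS on its first probe set, and by -0.08 ± 0.38 and -0.04 ± 0.38 on the second. Its intervals are wide, from -2.58 to 0.58 after saline. For the remaining 7 genes the KO effect lay between -0.17 (Gadd45g) and 0.17 (Gadd45b) after saline, and between -0.28 (Cdkn1c) and 0.20 (Gadd45b) after LPS. Their differences of response lay between -0.21 (Cdkn1c) and 0.23 (Gadd45g), with 95% intervals that together run from -0.86 to 1.29. These intervals leave room for genotype effects near 1 log2 unit in the more variable genes, so the test does not show that the genotypes act alike.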

How the data were processed

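Ventricular RNA was measured on Affymetrix expression arrays, 16 arrays with 1 per mouse sample and 4 per group. The authors deposited 1 log2 value per probe set and array, made with RMA per the submitters' processing notes, with no version named in the labels. RMA as commonly run corrects background, equalises the distributions of the arrays and summarises probes, and it compresses changes of dim probe sets. Precision is limited by the number of arrays. The deposited table had 45101 probe sets, of which 64 controls were left out, 34945 carried 1 symbol, 932 several and 9160 none here. Names came from GEO's platform annotation, 34741 of them matched by Entrez identifier to the RefSeq gene table, and the brightest probe set per gene left 18193 genes. No 2 arrays were identical.

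A model with 1 mean per group was fitted with limma 3.58.1 in R 4.3.3 (lmFit, eBayes with an intensity trend), two-sided, with Benjamini-Hochberg adjustment over all genes and calls under 0.05. It was tested on simulated data. Members, gene lists and tests were chosen with earlier results of these data known. Promoter stretches and motifs were chosen after the values and sequences were seen. All 10 members are named. Of each other list, up to 3 called genes with the largest change in an LPS comparison are named, and for Cdkn1a and the Gadd45 genes the 3 nearest profiles. Sesn1, Ddb2, Perp, Rb1, E2f3, E2f4, Mapk11 and Cebpa were added after their values were seen, to name the called genes of the opposite direction. Alternatives covered probe set choice, variance model, array weights, a filter on dim genes, normalization, the samples in the fit, a replicate block and left-out arrays. The transcript of the targeted receptor is not reported here, so genotype rests on the labels.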

Additional observations from a re-analysis of the deposited data

Results flagged for a closer look

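Each of the 40 groups of 4 arrays (10 genes by 4 groups) was searched for an array whose gap to its nearest neighbour exceeds Dixon's 95% critical share of the group's range, which chance passes in about 1 group in 20. It was passed in 3 groups, all of saline arrays. Cdkn1b stood at 9.16 in WT saline array 3, against 8.42 to 8.51 in the other WT saline arrays. Cdkn2c stood at 6.85 in WT saline array 2, against 6.69 to 6.71 in the others. Gadd45b stood at 6.35 in KO saline array 1, against 6.79 to 6.88 in the others. No difference of the LPS responses between genotypes passed for any of the 10 genes.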

How the results depend on the processing

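The next-brightest probe set and the fit without WT LPS array 4 and KO LPS array 2 were chosen after seeing the data. Under the other settings tried, 6 members called in KO hearts became 5 to 7 and 6 in WT hearts became 4 to 8, and leaving out 1 array gave 5 to 7 in each. Of 910 alternative values of single members, 839 kept their direction and their side of the threshold, 30 lost a call, 18 gained one and 23 changed sign. The sign changes concern changes that were not called. Mdm2 in WT hearts had changes of 0.0253 with arrays centred on their median and 0.0040 without WT saline arrays 1 and 4. Without WT LPS array 4 and KO LPS array 2 Mdm2 changed by -0.0614 in KO and 0.0113 in WT hearts, and with array weights by -0.023 in KO hearts. With 1 array left out Mdm2 ran from -0.0614 to 0.10 in KO and from -0.11 to 0.0603 in WT hearts, and Gadd45a in KO hearts from -0.28 to 0.28. Cdkn1b in WT hearts changed by 0.10 at the next-brightest, dim probe set, against -0.53 at the first. The KO effect on Cdkn1a after LPS ran from -0.35 to 0.0513 with 1 array left out and was -0.4597 without WT LPS array 4 and KO LPS array 2, and the difference of the Btg2 responses from -0.22 to 0.92 with 1 array left out. The other 7 genes gave 786 alternative values in the genotype comparisons, of which 105 had the other sign and 0 were called.

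Counts over all genes moved more. With all probe sets tested, 8394 were called after LPS in KO and 6590 in WT hearts. In WT hearts 2061 were called without WT saline arrays 1 and 4, and 5723 without WT LPS array 4 and KO LPS array 2. The KO effect after saline was called for 3 (all probe sets), 21 (array weights), 0 (genes above the median level), 14 (only the groups compared) and 9 genes (without WT LPS array 4 and KO LPS array 2). After LPS it was called for 4 with all probe sets, 0 with only the groups compared and 0 without WT saline arrays 1 and 4. The mean KO effect was called for 9 (all probe sets), 11 (array weights), 4 (median centring), 4 (quantile normalization again), 2 (replicate block), 0 (without WT saline arrays 1 and 4) and 7 genes (without WT LPS array 4 and KO LPS array 2). With 1 array left out, counts ran from 3871 to 5527 for LPS in KO hearts, 3006 to 4902 for LPS in WT hearts, 1 to 5 for the KO effect after saline, 0 to 3 after LPS and 1 to 3 for the mean. The causes were not tested.

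Replicate numbers share no stated litter or day. Same-numbered arrays deviated from their group means with correlations of -0.27 to 0.33, of which 3 of 24 exceeded 0.1. The highest was between WT LPS array 4 and KO LPS array 4. Such correlations cannot show whether same-numbered arrays shared a litter or day, and the main fit treated the arrays as unpaired. With the replicate block 7 members were called in KO hearts and 6 in WT hearts, of 4487 and 3537 genes called, and Btg2 was the call gained in KO hearts (adjusted p = 0.0456).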
